A study of Homo sapiens with 18 samples.

Results

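The genes described are 42 genes of DNA replication and mitosis, taken by name from the deposited table of read counts, in which all 42 had a row among 25435 rows. They cover replication licensing (9 genes), the replication fork (2), nucleotide synthesis (3), cyclins of G1 and S phase (4), mitotic cyclins with CDK1 and the CDC25 phosphatases (6), mitotic kinases (4), the spindle checkpoint and its target CDC20 (4), motors, kinetochore and chromosome proteins (6), E2F factors (2) and CDK inhibitors (2). They were measured by RNA-Seq in HEK293doxERN2 cells, a line derived from human embryonic kidney cells that carries a FLAG-tagged human ERN2 transgene switched on by doxycycline. ERN2, or IRE1β, is a stress sensor of the endoplasmic reticulum that epithelia of mucosal surfaces normally express. All 6 groups were this line, and each had 3 libraries. Cells received 0, 10 or 100 ng/mL doxycycline over 24 hours, and at each dose they were given either vehicle (DMSO) or 200 nM thapsigargin for 3 hours. Thapsigargin blocks the calcium pump of the endoplasmic reticulum and so causes ER stress. Cells at 0 ng/mL are called uninduced here, and they carry the transgene too. The series set out to compare the response to ER stress at no, low and high ERN2.

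Proliferating cells license each origin of replication once per cycle. ORC marks the origin, CDC6 and CDT1 join it, and the MCM2 to MCM7 ring is loaded as the helicase. E2F factors switch on many of these genes at the G1 to S transition, while genes of mitosis such as the B cyclins, CDK1 and the spindle checkpoint peak later, in G2 and M phase, and are held down earlier in the cycle by the DREAM complex. Acute ER stress is known to slow protein synthesis through PERK, and short-lived proteins such as cyclin D1 are known to be lost from stressed cells.

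Promoter sequences were at hand for 35 of the 42 genes (RefSeq, GRCh38.p14), each 250 bases before to 50 bases from the start of the gene. MCM4, MCM5, CCND1, CCNE2, AURKA, TTK and BIRC5 had no entry. 3 short words were searched on both strands. The E2F word was taken as any of TTTCGCGC, TTTGGCGC, TTCCCGCC, TTTCCCGC, TTTGGCGG and TTTCGCGG, which partly overlap each other, the CHR word was TTTGAA, and the third was CCAAT. An E2F word was found in 16 of the 35 promoters (45.7%), against 5.99% of all 34796 promoters of that length, and in 6 of the 7 licensing promoters and both E2F promoters. The CHR word was found in 10 of 35 (28.6%), against 15.2% of all promoters, and CCAAT in 25 of 35 (71.4%), against 34.6%. These matches describe letters only. Windows of 160 bases, 140 before the start and 20 from it, are printed for 8 genes called with thapsigargin in uninduced cells, 4 that rose and 4 that fell, with the words in capitals. The windows of the genes that rose lie at chr17:40287739-40287898 (plus strand), chr16:88803649-88803808 (plus strand), chr20:33686366-33686525 (minus strand) and chr1:23531214-23531373 (minus strand), in that order.
CDC6: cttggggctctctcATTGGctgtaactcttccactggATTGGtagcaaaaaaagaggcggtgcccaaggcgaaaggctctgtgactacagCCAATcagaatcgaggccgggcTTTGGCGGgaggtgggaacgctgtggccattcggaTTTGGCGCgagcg
CDT1: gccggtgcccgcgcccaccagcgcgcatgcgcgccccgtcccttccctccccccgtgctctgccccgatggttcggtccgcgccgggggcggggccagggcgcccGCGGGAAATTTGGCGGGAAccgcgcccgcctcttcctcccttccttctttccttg
E2F1: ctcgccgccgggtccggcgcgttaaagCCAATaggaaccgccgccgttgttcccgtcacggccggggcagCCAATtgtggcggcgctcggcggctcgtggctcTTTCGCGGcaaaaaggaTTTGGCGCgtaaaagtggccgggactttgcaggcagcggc
E2F2: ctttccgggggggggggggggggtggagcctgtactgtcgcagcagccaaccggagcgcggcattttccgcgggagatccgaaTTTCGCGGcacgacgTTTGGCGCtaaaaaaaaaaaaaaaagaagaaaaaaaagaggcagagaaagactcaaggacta

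Each of these 4 windows holds at least 1 E2F word, and none holds TTTGAA. ORC1, which also rose, is not printed, and its promoter holds CCAAT but no E2F word. The windows of the genes that fell lie at chr5:69167010-69167169 (plus strand), chr15:59105006-59105165 (plus strand), chr15:40160929-40161088 (plus strand) and chr5:138178972-138179131 (plus strand).
CCNB1: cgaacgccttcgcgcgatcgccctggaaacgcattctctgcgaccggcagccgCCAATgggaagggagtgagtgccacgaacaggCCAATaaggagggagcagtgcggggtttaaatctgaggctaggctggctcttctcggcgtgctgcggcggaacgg
CCNB2: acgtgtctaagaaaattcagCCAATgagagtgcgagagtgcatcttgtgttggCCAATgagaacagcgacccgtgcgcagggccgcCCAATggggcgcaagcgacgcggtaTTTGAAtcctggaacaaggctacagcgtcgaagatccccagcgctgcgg
BUB1B: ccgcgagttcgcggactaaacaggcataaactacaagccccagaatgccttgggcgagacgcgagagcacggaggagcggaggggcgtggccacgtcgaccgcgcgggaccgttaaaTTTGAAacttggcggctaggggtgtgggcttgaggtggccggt
KIF20A: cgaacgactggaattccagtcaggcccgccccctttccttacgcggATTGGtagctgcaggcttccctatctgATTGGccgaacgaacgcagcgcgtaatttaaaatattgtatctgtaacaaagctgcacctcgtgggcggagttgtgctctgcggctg

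None of these 4 windows holds an E2F word. CCNB2 and BUB1B hold TTTGAA on the strand of the gene, just before the start, and CCNB1, CCNB2 and KIF20A hold CCAAT on 1 strand or the other. The E2F and CHR words did not divide the genes that fell from the rest, since the promoters of PCNA and CDK1, which also fell, hold an E2F word.

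Library totals ran from 14876416 to 24652240 assigned reads, and the 42 genes had 506 to 23623 reads each in every library, so counting error was small beside the spread between libraries. ERN2 stood at 7.79 ± 1.27 CPM (counts scaled to 1e+06 a library; SD, n = 3) in uninduced vehicle libraries and at 270.0 ± 34.1 with 100 ng/mL. HSPA5, an ER chaperone of the stress response, rose with thapsigargin by 2.87 on the log2 scale in uninduced cells and by 1.20 at 100 ng/mL. VIM, NEFL, KRT8 and KRT18, known in HEK293 cells, were expressed throughout and PAX2 was low at 1.20 to 4.35 CPM. NEFM, of the same list, passed the filter for low counts in every comparison. Of the colon markers TFF3 was at 0 throughout while CDX2 reached 8.83 and LGR5 35.5 CPM. CDX1, VIL1, KRT20, CA1, FABP1 and LGALS4 were below that filter in every comparison, and MUC2 was below it in some. Libraries of the same group differed in base composition. The level of genes with a GC content under 42.5%, set against that of genes over 57.2%, ran from -0.67 to 0.92 on the log2 scale over the libraries, with the lowest values in replicates 2 and 3 of vehicle at 10 ng/mL (-0.62 and -0.67) and the highest in replicates 2 and 3 of thapsigargin at 100 ng/mL (0.64 and 0.92). This measure moved with several of the genes described, and results are therefore given also after each library's trend on GC content and transcript length was removed; the part of base composition in the results was not tested further. Nothing in the labels says that replicates were separate cultures, so the p-values measure the spread between these libraries.

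Per kilobase of transcript, the 42 genes spanned a wide range of levels in uninduced vehicle libraries. E2F2 was lowest at 7.71 CPM per kilobase, followed by MAD2L1 at 12.1 and ORC1 at 15.9. PCNA, the sliding clamp of DNA polymerases, was highest at 237 CPM per kilobase, ahead of TYMS, which makes thymidylate, at 220.1 and TOP2A, the topoisomerase that untangles sister chromatids, at 174. Of the licensing genes, MCM3 stood at 162 and MCM7 at 135 CPM per kilobase, above the loading factors CDC6 at 33.5 and CDT1 at 41.3. Over all 18 libraries the highest CPM of a gene was 1.79 times its lowest in the median over the 42, from 1.28 times for MCM6 to 5.72 times for TTK.

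**Figure D1:**
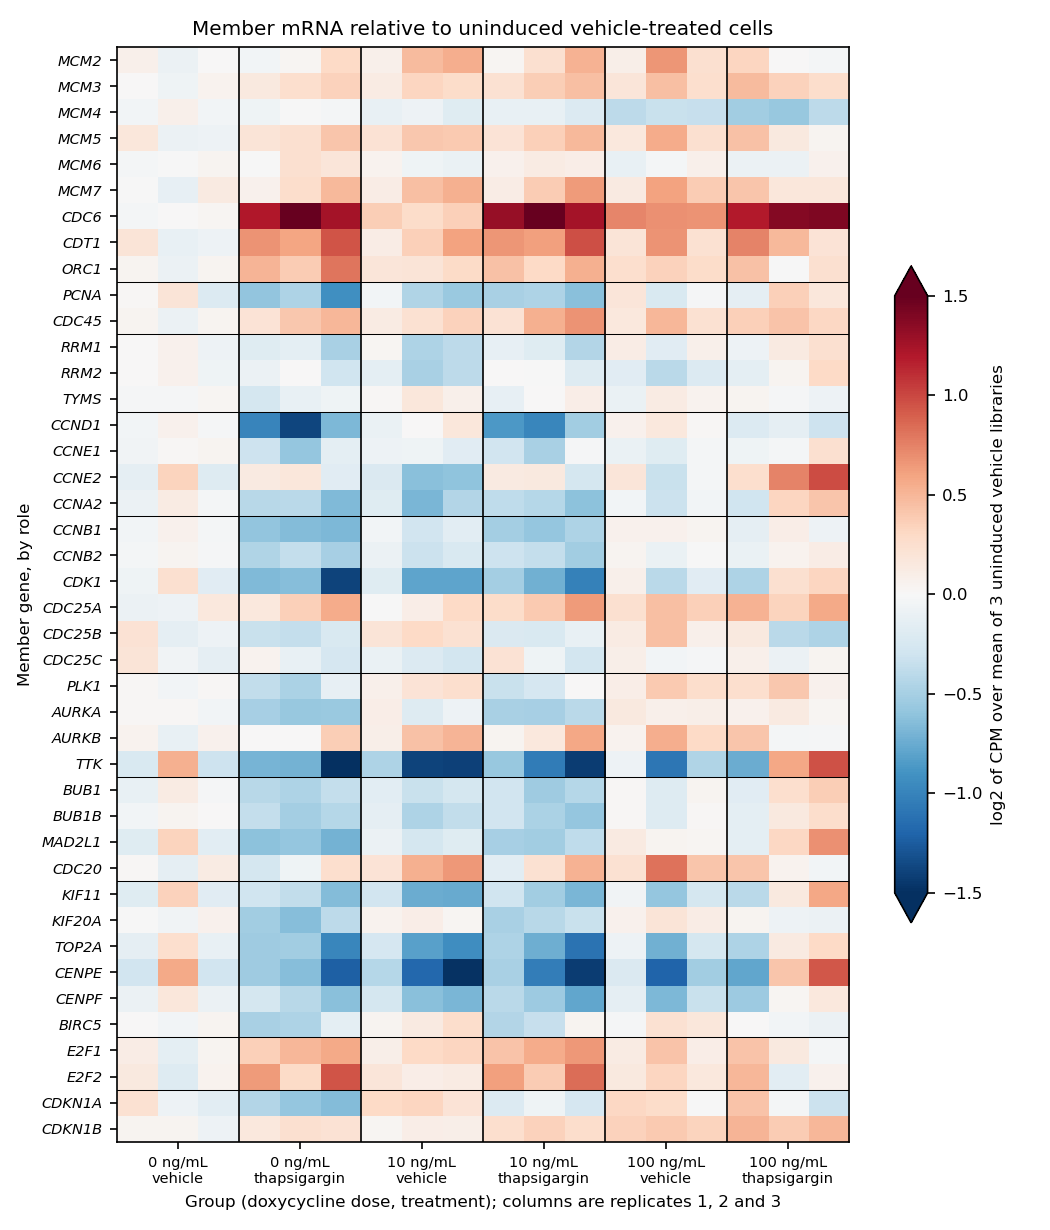
Level of the 42 genes, ordered by role, in each of the 18 libraries, as log2 of CPM over the mean of the 3 uninduced vehicle libraries, with replicates 1, 2 and 3 side by side within each group. CDC6 was higher in every thapsigargin library, and TTK and CENPE ran opposite ways in libraries of the same group.

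The first question was how these genes responded to thapsigargin without induced ERN2. 3 licensing genes and both E2F genes rose, and 12 genes fell, among them CCND1, the B cyclins, CDK1 and 2 genes of the spindle checkpoint. 17 of the 42 genes passed the threshold (adjusted p under 0.01, edgeR's quasi-likelihood test, Benjamini-Hochberg adjusted over the 14397 genes tested), 5 higher and 12 lower. Of all genes tested 11.2% passed, 6.45% higher and 4.74% lower. The median log2 fold change of the 42 was -0.28, against -0.0066 over all genes tested. In 32 of the 42 genes the 3 thapsigargin libraries did not overlap the 3 vehicle libraries, 9 above and 23 below, while 40.0% of all genes tested did not overlap, 20% above and 20% below. In bulk RNA a change in the share of cells in a phase and a change in mRNA per cell cannot be told apart.

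Among the licensing genes, CDC6, which loads the MCM ring, changed most. It stood at 158, 162 and 164 CPM with vehicle and at 370.4, 507 and 384 CPM with thapsigargin. The lowest thapsigargin library was above the highest vehicle library, and the log2 fold change was 1.39 (SE 0.125, adjusted p = 9.68e-06). CDT1, the partner of CDC6 in loading, stood at 152, 123 and 126 CPM with vehicle and at 212, 200.1 and 256 with thapsigargin. The groups were again separate, and it rose by 0.74 on the log2 scale (SE 0.121, adjusted p = 0.000982). ORC1, the subunit of the origin complex whose level varies with the cycle, rose from 51.9, 47.4 and 51.6 CPM to 71.4, 65.5 and 87.6 CPM (log2 fold change 0.58, SE 0.125, adjusted p = 0.00533), with no overlap. The helicase genes MCM2 to MCM7 did not pass the test. Their log2 fold changes lay between -0.025 for MCM4 and 0.29 for MCM5 and MCM7.

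Both E2F factors rose. E2F1, an activator of the genes of S phase, stood at 133, 111 and 127 CPM with vehicle and at 158, 174 and 183 with thapsigargin, with a log2 fold change of 0.49 (SE 0.107, adjusted p = 0.00607). E2F2, a related activator and the least abundant of the 42 genes per kilobase, stood at 44.0, 34.7 and 41.3 CPM and at 62.1, 48.7 and 76.5 CPM, with a log2 fold change of 0.65 (SE 0.156, adjusted p = 0.00975). In each the 3 thapsigargin libraries were above the 3 vehicle libraries, though the gap in E2F2 was small, from 44.0 to 48.7 CPM.

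At the replication fork 1 of the 2 genes was called. PCNA fell from 325, 365 and 277 CPM to 212, 233 and 169 CPM (log2 fold change -0.65, SE 0.135, adjusted p = 0.00461), without overlap. CDC45, which joins the MCM ring to form the active helicase, had a log2 fold change of 0.38 and did not pass (adjusted p = 0.0216). The 3 genes of nucleotide synthesis did not pass either, with -0.25 for RRM1 and -0.11 for RRM2, the subunits of ribonucleotide reductase, and -0.14 for TYMS. Of the G1 and S cyclins, CCND1 (cyclin D1, which drives G1 with CDK4 and CDK6) was at 95.6, 103 and 96.9 CPM with vehicle and 49.6, 37.9 and 61.9 CPM with thapsigargin. It fell by 0.98 on the log2 scale (SE 0.150, adjusted p = 0.000655), the steepest fall among the 12. CCNA2 (cyclin A2, active through S and G2) fell from 114, 132 and 119 CPM to 91.3, 91.6 and 76.5 CPM, by 0.48 (SE 0.113, adjusted p = 0.00844). The E cyclins, partners of CDK2 at the start of S phase, did not pass, at -0.33 for CCNE1 and 0.041 for CCNE2.

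The mitotic cyclins and their kinase fell together. CCNB1 was at 229, 246 and 231 CPM with vehicle and 156, 149.6 and 147 CPM with thapsigargin (log2 fold change -0.63, SE 0.0954, adjusted p = 0.000573). CCNB2 was at 109.6, 115 and 110.3 CPM and 81.7, 86.9 and 79.1 CPM (-0.43, SE 0.10, adjusted p = 0.00862). CDK1, the kinase both B cyclins activate, was at 167, 207 and 155 CPM and 111, 112 and 67.0 CPM (-0.85, SE 0.178, adjusted p = 0.00452). None of these 3 genes overlapped between the groups, and CDK1 had the widest spread within them. The CDC25 phosphatases, which remove the inhibitory phosphates from CDKs, did not pass, with 0.37 for CDC25A, -0.30 for CDC25B and -0.093 for CDC25C.

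AURKA, the kinase of spindle poles, fell from 190.4, 191 and 183 CPM to 133, 127 and 128 CPM (log2 fold change -0.53, SE 0.0939, adjusted p = 0.00166). AURKB, the kinase of the chromosomal passenger complex, had 0.15 and did not pass. TTK, the checkpoint kinase MPS1, had a log2 fold change as large as that of CCND1, -0.98, but a larger SE of 0.237, and missed the threshold at an adjusted p of 0.0102. In the spindle checkpoint BUB1B (BUBR1, which holds back the anaphase-promoting complex) fell from 143, 152 and 148 CPM to 115, 104 and 109.7 CPM, by 0.42 (SE 0.0973, adjusted p = 0.00788). MAD2L1, its partner in that inhibition, fell from 57.6, 82.0 and 58.5 CPM to 42.5, 43.4 and 40.0 CPM, by 0.64 (SE 0.142, adjusted p = 0.00621). BUB1, the kinetochore kinase, had -0.40 (adjusted p = 0.0132), and CDC20, the activator that the checkpoint restrains, -0.0051. The checkpoint genes were thus lower or level while none was called higher.

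All 6 genes of motors, kinetochore and chromosome had lower values with thapsigargin in each library, and 2 passed. KIF20A, a kinesin of cytokinesis, fell from 163, 158 and 171 CPM to 114, 105 and 125 CPM, by 0.51 (SE 0.103, adjusted p = 0.00379). TOP2A fell from 903, 1186 and 919 CPM to 687, 691 and 503 CPM, by 0.67 (SE 0.144, adjusted p = 0.00541). The kinetochore motor CENPE had -0.82 (adjusted p = 0.0175), the spindle motor KIF11 -0.44, the kinetochore protein CENPF -0.43 and BIRC5 (survivin, of the passenger complex) -0.35, and none of these passed. Of the 2 CDK inhibitors 1 was called. CDKN1A (p21, a target of p53) fell from 178, 145 and 137 CPM to 112, 102 and 97.1 CPM, by 0.56 (SE 0.117, adjusted p = 0.00468). CDKN1B (p27) was at 86.4, 86.6 and 80.0 CPM and 93.9, 99.2 and 97.6 CPM, a log2 fold change of 0.21 (SE 0.0996) that did not pass (adjusted p = 0.148), although the groups were separate.

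The count of 17 depended on single libraries. It was 5 without vehicle replicate 1, 8 without vehicle replicate 2, 11 without vehicle replicate 3, 8 without thapsigargin replicate 1, 10 without thapsigargin replicate 2 and 18 without thapsigargin replicate 3, with every direction kept. CDC6, CDT1, CCND1 and CCNB1 passed in all 6 of these fits, CDK1 and AURKA in 5, TOP2A and CDKN1A in 4, PCNA and MAD2L1 in 3, ORC1 and KIF20A in 2, E2F1, E2F2 and BUB1B in 1, and CCNA2 and CCNB2 in 0. With GC and length correction 27 of the 42 passed, 6 higher and 21 lower, and they included all 17. For fits with a library left out, another method or a correction, here and below, the share of all genes that passed is not given. Their counts of the 42 genes are therefore not set against it. GC content differed between the called genes, at 45.5% to 64.9% (median 57.5%) in the 5 that rose and 37.0% to 58.1% (median 43.8%) in the 12 that fell. Across the 42 genes, which are not independent and share the same libraries, Spearman's rank correlation between GC content and log2 fold change was 0.56 and after correction 0.48. CDC6, at 45.5% GC, rose by 1.38 after correction and CCND1 fell by 1.03, close to their uncorrected values.

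**Figure D2:**
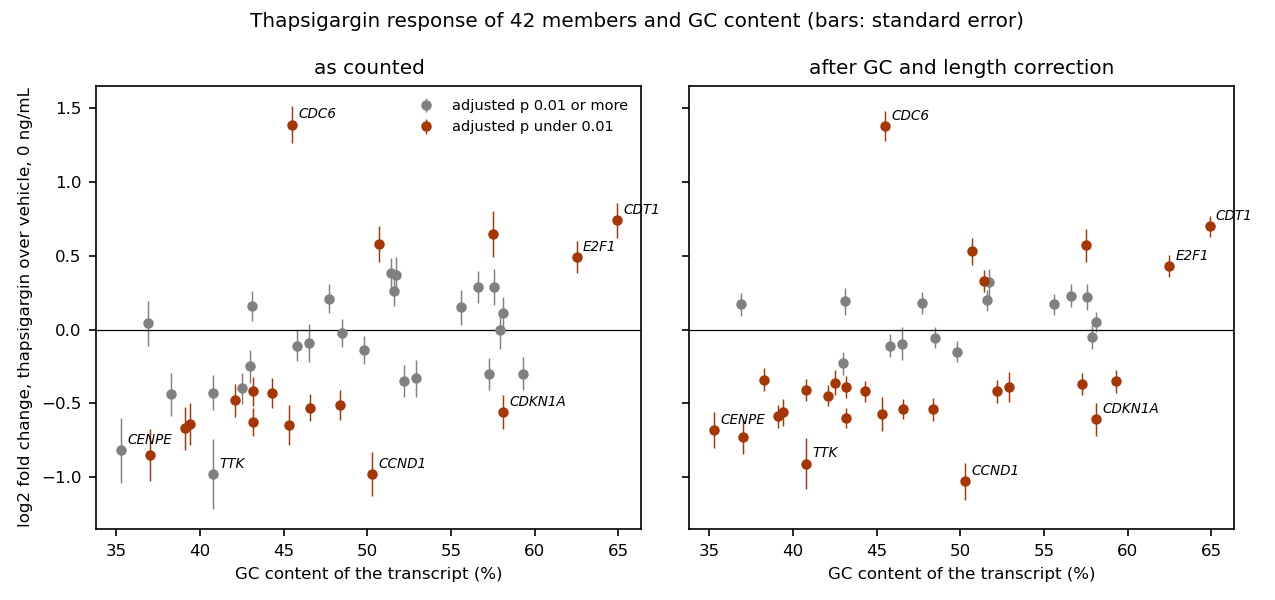
Log2 fold change with thapsigargin in uninduced cells (y axis, bars are the SE) against the GC content of the longest coding transcript (x axis, percent) for the 42 genes, as counted on the left and after GC and length correction on the right, with genes under an adjusted p of 0.01 in red. There were 17 such genes as counted and 27 after correction, and CDC6 stood alone at 1.39 and 1.38.

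The same response was measured at the 2 doses of doxycycline. These comparisons use other vehicle libraries than the uninduced one. Only CDC6, 1 of the 42 genes, passed at 10 ng/mL, while 1.45% of all 14607 genes tested passed. CDC6 was at 209, 195 and 206 CPM with vehicle and 399, 522 and 384 CPM with thapsigargin, a log2 fold change of 1.09 (SE 0.135, adjusted p = 0.00182). The median of the 42 was -0.059, against -0.0065 over all genes. It was 0.006 without vehicle replicate 1, -0.023 without thapsigargin replicate 3 and -0.12 with GC and length correction. The genes called in uninduced cells kept their direction, with 0.20 to 1.09 in the 5 that had risen and -0.81 to -0.055 in the 12 that had fallen. CCND1 came next, at 92.1, 98.6 and 111 CPM and 54.2, 49.8 and 68.8 CPM, without overlap (log2 fold change -0.81, SE 0.146, adjusted p = 0.0122). CDKN1A, at 188, 191 and 176 CPM and 132, 146 and 128 CPM, was also separate (-0.46, adjusted p = 0.0320). KIF20A, at 170.0, 176 and 167 CPM and 117, 123 and 130.2 CPM, had -0.48 (adjusted p = 0.0255). The call of CDC6 was lost without vehicle replicate 2 or thapsigargin replicate 2, and CCND1 was called as well without vehicle replicate 1 or without thapsigargin replicate 3. With GC and length correction 8 genes passed, CDC6, CDT1, E2F1 and E2F2 higher and CCND1, CCNB1, AURKA and KIF20A lower.

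At 100 ng/mL 0 of the 42 genes passed edgeR's test, and 0.201% of all 14427 genes tested did. Without adjustment 6 of the 42 and 27.0% of all genes had a p under 0.05, and DESeq2 called 2, CDC6 and CCNE2. CDC6 stood at 267, 259 and 258 CPM with vehicle and 368, 419.5 and 427 CPM with thapsigargin, still without overlap (log2 fold change 0.65, SE 0.117, adjusted p = 0.0220). CCND1 was at 103, 110.1 and 100.0 CPM and 85.1, 89.8 and 79.4 CPM, also without overlap, and its log2 fold change was -0.28 (SE 0.129, adjusted p = 0.196). The other genes that had risen in uninduced cells lay between -0.036 for ORC1 and 0.14 for CDT1. Of the 12 that had fallen 5 were below 0 and 7 above, from -0.28 to 0.37. CDK1, for example, was at 184, 132 and 155 CPM with vehicle and 127, 207 and 219 CPM with thapsigargin, and the ranges overlapped. The median of the 42 was 0.077, against -0.0024 over all genes. It was 0.0053 without thapsigargin replicate 1, 0.04 without vehicle replicate 1, 0.0028 with library totals, 0.03 in a fit of all 6 groups and 0.044 with GC and length correction. Without thapsigargin replicate 1 the count was 6, namely CDC6, CCNE2, TTK, KIF11 and CENPE higher and CDC25B lower, and the other 5 omissions left 0. Replicates 2 and 3 of that group had the highest base-composition values of the series, and with GC and length correction CDC6 (0.55) and CDT1 (0.45) passed. Across the 42 genes Spearman's rank correlation of GC content with log2 fold change was -0.73 as counted and 0.092 after correction.

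**Figure D3:**
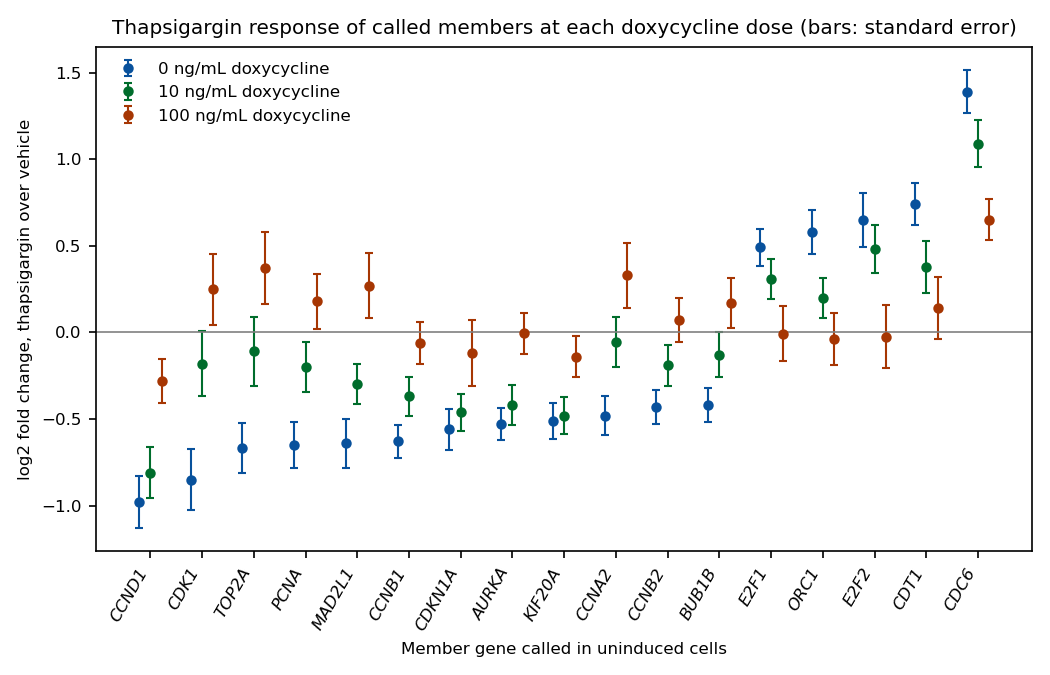
Log2 fold change of thapsigargin over vehicle (y axis, bars are the SE) at 0, 10 and 100 ng/mL doxycycline for the 17 genes called in uninduced cells (x axis), each dose with its own 3 vehicle and 3 thapsigargin libraries. CDC6 went from 1.39 to 1.09 and 0.65, and the 12 genes that fell in uninduced cells lay between -0.28 and 0.37 at 100 ng/mL.

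Whether the response differed between doses was tested with an interaction term fitted to 12 libraries, and both tests share the uninduced ones. For the lower dose 0 of the 42 genes passed edgeR's test, as did 0 of 14857 genes tested, while 8 of the 42 and 4.47% of all genes had a p under 0.05 before adjustment and DESeq2 called 0 of the 42. For the higher dose 0 of the 42 passed, and 0.0406% of 14768 genes tested did. There 27 of the 42 genes, 22 above and 5 below 0, had an unadjusted p under 0.05, against 24.7% of all genes, 15.6% above and 9.15% below. DESeq2 called 4, CCNB1, CCNB2 and AURKA higher and CDC6 lower. The smallest adjusted p was that of AURKA, with an interaction of 0.61 (SE 0.130, adjusted p = 0.0408), followed by CCNB1 with 0.65 (SE 0.141, adjusted p = 0.0439). CCND1 had 0.79 (SE 0.197, adjusted p = 0.0651) and CDC6 -0.66 (SE 0.173, adjusted p = 0.0739). All 12 genes that had fallen in uninduced cells were above 0 here (0.45 to 1.18), and all 5 that had risen were below (-0.66 to -0.41), a direction opposite to the response used to select them, so these signs are given as a description. The median of the 42 was 0.43, against 0.039 over all genes, and with library totals alone the medians were 0.25 and -0.14. They were 0.27 and -0.011 with GC and length correction. Leaving out thapsigargin replicate 1 at 100 ng/mL gave 14 calls, all above 0, and each of the other 11 omissions gave 0. With GC and length correction CCND1 (0.82) and TOP2A (0.64) passed above 0 and CDC6 (-0.81) below. Across the 42 genes Spearman's rank correlation of GC content with this interaction was -0.77 as counted and -0.45 after correction.

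Doxycycline without thapsigargin was compared in vehicle libraries, and the 2 doses share the uninduced ones. No cells without the transgene were given doxycycline. Effects of the drug and of induced ERN2 therefore cannot be told apart, here or in the other comparisons between doses. At 100 ng/mL 1 of the 42 genes rose, CDC6, and none was called lower, while 8.33% of all 14444 genes tested passed, 0.838% higher and 7.49% lower. From the uninduced 158, 162 and 164 CPM it was at 267, 259 and 258 CPM, with tight replicates in both groups (log2 fold change 0.65, SE 0.0933, adjusted p = 0.000331), and it passed whichever of the 6 libraries was left out. With 10 ng/mL CDC6 was in between, at 209, 195 and 206 CPM, with 0.33 (SE 0.0957, adjusted p = 0.0819). MCM4 was lower at 100 ng/mL in all 3 libraries, at 347, 361 and 358 CPM against 443, 477 and 443 CPM, and missed the threshold (log2 fold change -0.40, SE 0.0939, adjusted p = 0.0128). CDKN1B was higher in all 3, at 107, 111 and 106 CPM, with 0.31 (SE 0.101, adjusted p = 0.0580). Such separation was found in 17 of the 42 genes, 14 above and 3 below, and the share of all genes is not given here. CDKN1A was at 189.6, 185 and 152 CPM and overlapped the uninduced libraries (0.15, adjusted p = 0.456). The B cyclins were level, with 0.0087 for CCNB1 (245, 246 and 242 CPM) and -0.067 for CCNB2 (115, 104 and 111 CPM). Without vehicle replicate 1 at 100 ng/mL the count was 3, with CDC20 higher and CENPF lower beside CDC6, and without replicate 2 it was 2, with MCM4 lower. With GC and length correction CDC6 and CDKN1B passed higher and MCM4 lower.

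With vehicle and 10 ng/mL 0 of the 42 genes passed edgeR's test, against 0.193% of 14497 genes tested. Without adjustment 21 of the 42 and 30.5% of all genes had a p under 0.05, and DESeq2 called 2, TOP2A and CENPF, both lower. TOP2A was at 834, 567 and 520.3 CPM, below the uninduced libraries (log2 fold change -0.65, SE 0.167, adjusted p = 0.0767). CDK1 was at 154, 101 and 101 CPM, also below (-0.57, SE 0.168, adjusted p = 0.0821). In both genes replicate 1 was the highest, and base composition set replicates 2 and 3 of this group apart from it. Without replicate 1 of this group 18 of the 42 passed, among them TTK at -1.46, CENPE at -1.39 and CDK1 at -0.81, and without any of the other 5 libraries 0 passed. The share of all genes passing without replicate 1 is not given, so the 18 are not set against it. Spearman's rank correlation of GC content with log2 fold change across the 42 genes was 0.88 as counted and 0.49 after correction, and with correction CDC6 alone passed (0.47).

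In thapsigargin-treated cells, 100 ng/mL doxycycline was set against no doxycycline, with uninduced thapsigargin libraries that also entered the comparisons above. PCNA, CCND1, CCNB1, AURKA and MAD2L1 rose, and 0 of the 42 genes fell, while 10.5% of all 14358 genes tested passed, 1.53% higher and 9.00% lower. The median of the 42 was 0.33, against 0.044 over all genes. All 5 were among the 12 genes that thapsigargin had lowered in uninduced cells, and the 2 comparisons share the uninduced thapsigargin libraries. PCNA was at 292, 410.0 and 359.8 CPM, above the uninduced 212, 233 and 169 CPM (log2 fold change 0.79, SE 0.174, adjusted p = 0.00686). CCND1 was at 85.1, 89.8 and 79.4 CPM against 49.6, 37.9 and 61.9 CPM (0.77, SE 0.177, adjusted p = 0.00852). The levels of CCND1 were still below those of vehicle at the same dose, while PCNA was not. CCNB1 was at 215, 252 and 223 CPM against 156, 149.6 and 147 CPM (0.61, SE 0.136, adjusted p = 0.00730). AURKA was at 197, 206 and 192 CPM against 133, 127 and 128 CPM (0.61, SE 0.130, adjusted p = 0.00502). MAD2L1 was at 59.0, 80.6 and 105 CPM against 42.5, 43.4 and 40.0 CPM (0.95, SE 0.193, adjusted p = 0.00405). In each of the 5 the groups were separate, as they were in 20 of the 42 genes, 19 above and 1 below, and in 36.5% of all genes, 16.1% above, and MAD2L1 varied most between its induced replicates.

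The other 7 genes that thapsigargin had lowered had log2 fold changes of 0.46 to 0.92 and did not pass, though their groups were separate too. CDK1 was at 127, 207 and 219 CPM (0.92, adjusted p = 0.0171) and TOP2A at 719, 1094 and 1219.9 CPM (0.68, adjusted p = 0.0287). CCNA2 was at 99.0, 152 and 162 CPM (0.66), CCNB2 at 104, 116 and 121 CPM (0.46) and BUB1B at 133, 163 and 177 CPM (0.52). In these genes replicate 1 was the lowest of its group and replicates 2 and 3 were close to each other. KIF20A was at 168, 156 and 154 CPM (0.48) and CDKN1A at 205, 149.7 and 122 CPM (0.62, adjusted p = 0.0331), and here replicate 1 was the highest. The genes that had risen with thapsigargin were not called. CDC6 was at 368, 419.5 and 427 CPM (-0.059), CDT1 at 223, 186 and 153 CPM (-0.25) and ORC1 at 68.2, 49.9 and 59.2 CPM (-0.34). E2F1 was at 166, 136 and 121 CPM (-0.29) and E2F2 at 56.4, 35.6 and 41.6 CPM (-0.48), and all 5 overlapped the uninduced libraries. MCM4 was lower in all 3 libraries, at 316, 305 and 347 CPM against 433, 454 and 444 CPM (-0.46, SE 0.122, adjusted p = 0.0178). CDKN1B, at 120.4, 109.7 and 119 CPM against 93.9, 99.2 and 97.6 CPM, was higher in all 3 but did not pass (0.26, adjusted p = 0.172).

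The count of 5 was 18 without thapsigargin replicate 1 at 100 ng/mL, with 17 higher and E2F2 lower. It was 0 without uninduced replicate 1, 1 without uninduced replicate 2 (PCNA) or 3 (CCND1), 0 without induced replicate 2, and 2 without induced replicate 3 (AURKA and CDKN1A). DESeq2 called 14, and with GC and length correction 17 passed, 16 higher and MCM4 lower. After that correction MAD2L1 had 0.73 and CCNB1 0.44, against 0.95 and 0.61 as counted, while CCND1 had 0.86, against 0.77. Each of the 5 genes kept its direction and its call with the correction. Across the 42 genes Spearman's rank correlation of GC content with log2 fold change was -0.64 as counted and still -0.39 after correction. The part of base composition in these calls was not tested further. With the replicate number as a block, PCNA and MAD2L1 still passed, and CCND1 (adjusted p = 0.0139), CCNB1 (0.0246) and AURKA (0.0225) did not.

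With thapsigargin and 10 ng/mL 0 of the 42 genes passed edgeR's test, as did 0 of 14509 genes tested, and DESeq2 called 0 of the 42. Without adjustment CDKN1A had a p under 0.05, 1 of the 42, as had 4.22% of all genes. CDKN1A was at 132, 146 and 128 CPM, above the uninduced 112, 102 and 97.1 CPM (log2 fold change 0.38, SE 0.109, adjusted p = 0.863). With the replicate number as a block, used here because same-numbered libraries of this comparison deviated together, it passed at the same size (0.38, SE 0.0628, adjusted p = 0.000603). This pairing was chosen from the data, the labels give no shared origin, and the share of all genes passing with the block is not given. The base-composition measure was lowest in replicate 3 of both groups (-0.31 uninduced and -0.45 at 10 ng/mL), and its part in this call was not tested further. CCNB1 was at 165, 157 and 170.3 CPM, AURKA at 134, 133 and 142 CPM and MAD2L1 at 46.1, 45.3 and 49.9 CPM, all 3 above the uninduced libraries by a narrow gap, as 4.60% of all genes were, and with log2 fold changes of 0.067 to 0.15 that did not pass. The 42 had a median of 0.063, against -0.0035 over all genes.

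**Figure D4:**
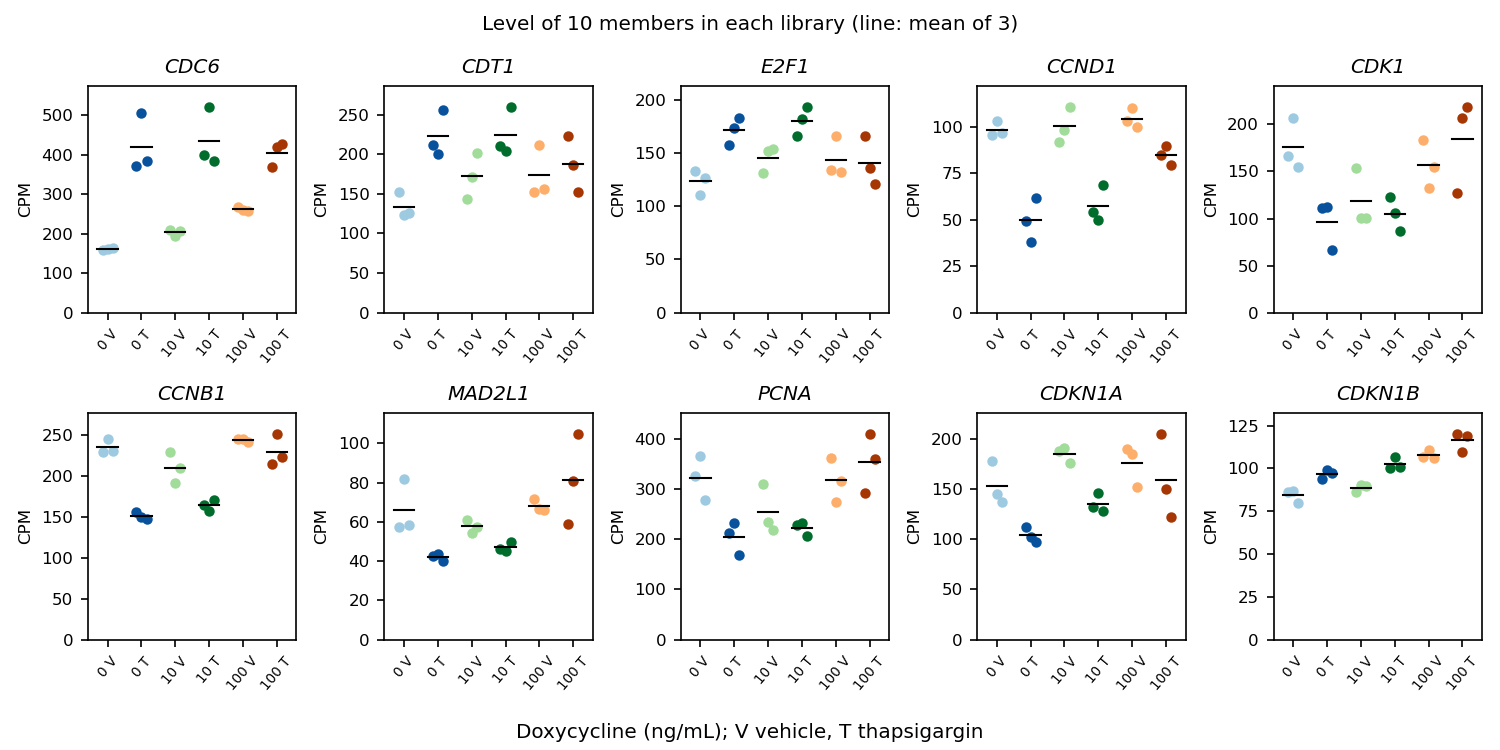
CPM (y axis, from 0) of 10 of the genes in each of the 18 libraries by group (x axis: doxycycline dose in ng/mL, V vehicle, T thapsigargin), with a line at the mean of 3 libraries. CCND1 and CCNB1 with thapsigargin were lower at 0 and 10 ng/mL than at 100 ng/mL, CDC6 was higher with thapsigargin in every library at each dose, and CDKN1B ran from 80.0 to 120.4 CPM.

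For the genes named above, the remaining values complete the 6 groups. CDT1 was at 144, 171 and 202 CPM with vehicle and 210.3, 204 and 260.4 CPM with thapsigargin at 10 ng/mL, and at 152, 212 and 156 CPM with vehicle at 100 ng/mL. ORC1 was at 57.0, 57.4 and 61.5, 68.1, 61.7 and 72.6 and 59.8, 63.8 and 61.0 CPM in the same order of groups. E2F1 was at 131, 152 and 154, 166, 182 and 194 and 134, 166 and 132 CPM. These genes were higher with thapsigargin in every library at 10 ng/mL, as were 15.6% of all genes, and CDT1, ORC1 and E2F1 had log2 fold changes of 0.38, 0.20 and 0.31 that did not pass. E2F2 was at 45.0, 42.8 and 43.5, 61.2, 52.0 and 71.2 and 44.2, 49.6 and 44.4 CPM. PCNA was at 310.4, 234 and 218, 228, 233 and 207 and 362, 274 and 316 CPM. MAD2L1 was at 61.2, 54.3 and 57.6 CPM with vehicle at 10 ng/mL and 71.7, 66.8 and 66.3 at 100 ng/mL. PCNA varied widely among vehicle libraries, so that its thapsigargin response at 10 ng/mL was within the spread (-0.20, adjusted p = 0.419). CCNA2 was at 107, 75.4 and 89.8, 93.4, 90.3 and 79.2 and 118, 97.0 and 118 CPM. CCNB2 was at 105, 89.1 and 95.1 and 89.7, 86.9 and 77.6 CPM at 10 ng/mL. CCNB1 was at 229, 192 and 210.1 CPM and AURKA at 202, 165 and 179 CPM with vehicle at 10 ng/mL, and AURKA at 208, 198 and 200.4 CPM at 100 ng/mL. For both the 10 ng/mL vehicle libraries were above those with thapsigargin. BUB1B was at 135, 107 and 114, 121, 106 and 99.0 and 149.5, 129 and 149 CPM. KIF20A was at 172, 188 and 177 CPM and TOP2A at 943, 604 and 828 CPM with vehicle at 100 ng/mL, and TOP2A at 723, 597 and 463 CPM with thapsigargin at 10 ng/mL. CDK1 was at 123, 106 and 87.0 CPM in that last group and CDKN1B at 86.0, 90.1 and 89.8 and 100.4, 107 and 101 CPM with vehicle and thapsigargin. CDKN1B was higher with thapsigargin in every library at 10 ng/mL and did not pass (0.21, adjusted p = 0.249).

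PLK1, the kinase that drives entry into mitosis, is read apart because its gene ends inside ERN2. In GENCODE release 29 on GRCh38, PLK1 lies at chr16:23677656-23690367 on the plus strand and ERN2 at chr16:23690326-23713500 on the minus strand, so that their ends share 42 bases. The libraries were stranded, but how strand was used in counting is not given in the sources used here, and whether ERN2 reads entered the count of PLK1 was not tested. PLK1 was at 273, 263 and 273 CPM with vehicle and 209, 194 and 248 CPM with thapsigargin in uninduced cells (log2 fold change -0.30, SE 0.107, adjusted p = 0.0580). With 10 ng/mL it was at 284, 309.7 and 321 and 214, 227 and 270.1 CPM (-0.37, adjusted p = 0.0975), and at 100 ng/mL at 288, 354 and 325 and 320.5, 356 and 283 CPM (0.012, adjusted p = 0.960). Doxycycline at 100 ng/mL gave 0.22 with vehicle (SE 0.106, adjusted p = 0.200) and 0.56 with thapsigargin (SE 0.145, adjusted p = 0.0166). The 3 induced libraries were above the 3 uninduced ones in both treatments. So they were in 14 of the 42 genes with vehicle and in 19 with thapsigargin, PLK1 included. PLK1 passed in none of the 9 comparisons in edgeR's test of all libraries as counted. Without thapsigargin replicate 3 it passed with thapsigargin in uninduced cells (-0.40, adjusted p = 0.00746). For 100 ng/mL in thapsigargin-treated cells it passed without induced replicate 1 (0.57, adjusted p = 0.00409) and in DESeq2 (0.56, adjusted p = 0.00396). With GC and length correction it passed with thapsigargin in uninduced cells (-0.37, SE 0.0726, adjusted p = 0.00178) and for 100 ng/mL in thapsigargin-treated cells (0.69, SE 0.115, adjusted p = 0.000411).

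A further 134 genes of the cell cycle and of the p53 response were read from the same fits. They form 5 lists written from general knowledge, but with earlier results of these data known. With thapsigargin in uninduced cells 10 of the 134 were higher and 13 lower, where 6.45% of all genes tested were higher and 4.74% lower. Their median log2 fold change was -0.12, against -0.0066 over all genes. Of 42 genes of the origin and fork, 2 rose and 1 fell, namely MCM10 (0.57) and POLA2 (0.49), which start synthesis, against POLE2 (-0.73), a polymerase subunit. Of 21 genes of G1/S control 3 rose and 2 fell. The repressors E2F7 (0.96) and E2F8 (0.68) and the growth factor-responsive MYC (0.97) rose, and the CDK inhibitors CDKN1C (-1.22) and CDKN2C (-0.47) fell.

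Of 45 genes of G2/M entry and mitosis 1 rose and 6 fell. PKMYT1 (0.60), which inhibits CDK1, rose. Among those that fell were PTTG1 (-0.69), or securin, DLGAP5 (-1.05), a spindle protein, and ANLN (-0.69), a scaffold of the cleavage furrow. Of 18 p53-responsive genes 4 rose and 3 fell, so this list did not move to 1 side. GADD45A (1.57), AEN (0.78) and PLK3 (0.89) rose, while TP53INP1 (-1.27), BTG2 (-0.74) and SESN1 (-0.62) fell along with CDKN1A.

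With thapsigargin at 10 ng/mL, E2F7 (1.0) and GADD45A (1.26) rose and no other gene of the 134 passed, against 1.45% of all genes. At 100 ng/mL with vehicle GADD45A rose (0.75). In thapsigargin-treated cells 100 ng/mL raised 5 of the 45 mitosis genes, against 1.53% of all genes. Among them were PTTG1 (0.77), WEE1 (0.74), which inhibits CDK1, and ANLN (0.93). It lowered 2 of the 134 genes, PKMYT1 (-1.07) and the nucleoside carrier SLC29A1 (-0.74), while 9.00% of all genes were lower. PTTG1 and ANLN had fallen and PKMYT1 had risen with thapsigargin in uninduced cells, in a comparison with the same uninduced thapsigargin libraries. The median of the 45 mitosis genes was -0.33 with thapsigargin in uninduced cells and 0.54 for 100 ng/mL in thapsigargin-treated cells. In the remaining 5 comparisons 0 of the 134 genes passed edgeR's test, and without adjustment a p under 0.05 was found for 42 with thapsigargin at 100 ng/mL (27.0% of all genes), 66 with 10 ng/mL in vehicle (30.5%) and 4 with 10 ng/mL in thapsigargin (4.22%). For the interactions at 10 and 100 ng/mL it was found for 8 and 58 of the 134, against 4.47% and 24.7% of all genes.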

How the data were processed

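RNA was extracted by the authors with the RNeasy Mini kit. A core facility made libraries with KAPA stranded mRNA HyperPrep kits and sequenced them with 75 cycles of single-end reads. Reads were aligned with STAR in the VIPER pipeline.
The authors deposited raw read counts per gene symbol, 1 column per library, for all 18 libraries, with no normalization or filter.
The submitters' processing notes name hg38. Software versions, annotation and the strand setting of the counting are not given in the sources used here.
Columns were matched to samples by the column number in the labels, and 0 columns were left unused. In 28 rows a symbol had been turned into a date.
The extraction text in the labels names colon crypt cells, while the samples are labelled as the cell line.

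The 42 genes and all gene lists were chosen with earlier results of these data known, and the lists of other genes were written from general knowledge.
Groups and replicate numbers came from the sample titles. Counts were normalized by TMM, filtered with filterByExpr (minimum count 10) and tested with the quasi-likelihood test of edgeR 4.0.16 in R 4.3.3 (glmQLFit, glmQLFTest) on only the groups compared, 6 libraries a comparison, with p-values adjusted by Benjamini-Hochberg over every gene tested and a threshold of 0.01. Interactions were fitted on 12 libraries.
The SE was taken as the absolute log2 fold change over the root of F. CPM were scaled by TMM over all 18 libraries.
Values in every library are given for CDKN1A, CDKN1B, CCND1, E2F1, PLK1 and every member past the threshold in any of the 9 comparisons, and of each other list for up to 3 genes a direction and comparison with the smallest adjusted p the log2 fold change. TTK, CENPE and MCM4 were named beyond this after their values were seen.

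Alternatives were DESeq2 1.42.0, RLE size factors, library totals, no count filter, 1 fit of all 6 groups, a block for the replicate number, a threshold of 0.05 and each library left out. A correction for GC content and length, chosen after seeing the data, removed a lowess trend (span 0.3) of each library on the GC content, then the length, of the longest coding transcript in GENCODE release 29.
Same-numbered libraries were taken as paired where all 3 correlations of their deviations from the group means were over 0.1. That held for 10 against 0 ng/mL doxycycline with thapsigargin (r = 0.40, 0.34 and 0.47). For thapsigargin in uninduced cells all 3 were positive and 1 was under 0.1 (r = 0.083, 0.20 and 0.27). The labels give the numbers but no shared origin.
No libraries of a group matched within sampling noise (chi-square per degree of freedom 7.33 to 63.8). The lowest two-sided p of an exact permutation of 3 against 3 libraries is 0.10, so the test used all genes.
The test was checked on simulated data. The calls of 1 further cell cycle gene are counted in the totals and not reported here. Plots used matplotlib 3.10.9 and Python 3.11.15.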

Additional observations from a re-analysis of the deposited data

How the results depend on the processing

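Counts of the 42 genes called by edgeR's quasi-likelihood test are given with each alternative that moved them by over 1.5 times. With thapsigargin in uninduced cells the 17 became 10 in a fit of all 6 groups, 26 with a replicate block, 27 with GC and length correction and 32 with both. For thapsigargin at 10 ng/mL the 1 became 5 at an adjusted p of 0.05, 5 with DESeq2, 2 with no count filter, 4 in the fit of all groups, 17 with the block, 8 with GC and length correction and 22 with both. At 100 ng/mL the 0 became 1 at 0.05, 2 with DESeq2, 1 with no filter, 1 in the fit of all groups, 2 with the correction and 1 with correction and block. For 10 ng/mL doxycycline with vehicle the 0 became 2 with DESeq2, 6 with no filter, 2 with the block, 1 with the correction and 1 with both. For 100 ng/mL with vehicle the 1 became 2 at 0.05, 2 with DESeq2, 2 with no filter, 2 in the fit of all groups, 3 with the correction and 3 with both. For 10 ng/mL with thapsigargin the 0 became 1 with the block and 1 with correction and block. For 100 ng/mL with thapsigargin the 5 became 18 at 0.05, 14 with DESeq2, 13 with no filter, 13 in the fit of all groups, 17 with the correction and 15 with both, and 4 with the block. The interaction at 10 ng/mL stayed at 0 under all alternatives, and that at 100 ng/mL became 2 at 0.05, 4 with DESeq2, 3 with the correction and 4 with correction and block. The share of all genes that passed is not given for these alternatives or for the libraries left out below. The shifts are therefore not set against it, and their cause was not tested.

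With single libraries left out the counts ran from 5 to 18 with thapsigargin in uninduced cells, 0 to 2 at 10 ng/mL and 0 to 6 at 100 ng/mL (6 without thapsigargin replicate 1), from 0 to 18 for 10 ng/mL (18 without its vehicle replicate 1) and 1 to 3 for 100 ng/mL with vehicle, from 0 to 0 for 10 ng/mL and 0 to 18 for 100 ng/mL with thapsigargin (18 without induced replicate 1), and from 0 to 0 and 0 to 14 for the interactions at 10 and 100 ng/mL (14 without thapsigargin replicate 1 at 100 ng/mL). Of the 24 calls of single genes, none changed direction. They passed in 73 of 144 fits with a library left out and in 202 of 216 fits under the other alternatives. Outside 10 against 0 ng/mL with thapsigargin, no pairwise comparison had all 3 correlations of same-numbered libraries over 0.1 (r from -0.37 to 0.50), and the replicate block was not read as a pairing there. For thapsigargin in uninduced cells, where the block gave 26, they were 0.083, 0.20 and 0.27, all positive. Each of the 42 genes had at least 506 reads in every library, and each group had 3 libraries.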

Other observations

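Of the 42 genes, TTK and CENPE had the widest range over the 18 libraries, and they were picked out after their values were seen. TTK, the kinase MPS1 that starts the spindle checkpoint, ran from 43.0 to 246 CPM, a 5.72-fold range. Its values were 109, 184 and 103 CPM with vehicle and 78.7, 78.2 and 43.0 CPM with thapsigargin in uninduced cells. With 10 ng/mL they were 92.2, 48.7 and 48.1 CPM and 85.8, 61.5 and 47.6 CPM, and at 100 ng/mL 121, 60.1 and 93.5 CPM and 75.9, 191 and 246 CPM. CENPE, a motor that carries chromosomes to the spindle equator, ran from 55.2 to 295 CPM, a 5.34-fold range. It stood at 127, 229 and 127 and 107, 98.9 and 66.2 CPM in uninduced cells, at 115, 68.2 and 55.2 and 110.1, 75.5 and 57.8 CPM at 10 ng/mL, and at 133, 67.1 and 108 and 90.4, 207 and 295 CPM at 100 ng/mL. In both genes replicates 2 and 3 of thapsigargin at 100 ng/mL were far above replicate 1, and vehicle replicate 2 was the highest of its group without doxycycline and the lowest at 100 ng/mL. The interaction at 100 ng/mL was 1.98 for TTK (SE 0.541, adjusted p = 0.0776) and 1.86 for CENPE (SE 0.522, adjusted p = 0.0815) in edgeR's quasi-likelihood test, larger than in any other of the 42 genes, and neither passed. After GC and length correction the interactions were 1.52 for TTK (SE 0.353, adjusted p = 0.0172) and 1.17 for CENPE (SE 0.264, adjusted p = 0.0153), and neither passed. The base-composition measure was -0.12, 0.64 and 0.92 in the 3 thapsigargin libraries at 100 ng/mL, 0.46 for vehicle replicate 2 without doxycycline and -0.54 for vehicle replicate 2 at 100 ng/mL. The part of base composition in these values was not tested further.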
